A study of Mus musculus with 15 samples.

Results

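Elastic fibres give skin, arteries and lungs their recoil, and 10 genes that encode their components were followed here across 5 conditions: elastin (Eln), the fibrillins Fbn1 and Fbn2, the fibulins Fbln1, Fbln2, Fbln5, Efemp1 and Efemp2, and the microfibril-associated glycoproteins Mfap4 and Mfap5. They were chosen by name from the 22063 rows of a table of RNA-seq read counts. All 10 passed the filter on low counts, which kept 14012 rows for testing. The counts come from 15 libraries of primary C57Bl/6 mouse embryonic fibroblasts at passage 2, connective tissue cells grown out of embryos. The cells were electroporated with a plasmid carrying Crxos, Oboxa1 (Obox6 in older naming), Oboxa4 (formerly Obox1), Oboxa7 (Gm8053) or no insert, the control, with 3 libraries each. These 4 genes encode homeodomain transcription factors of the early embryo, and the study asked which fibroblast genes respond when each is expressed outside its normal place. In each plasmid the constitutive CMV promoter drives the gene with a V5 tag at its C-terminus, the plasmid co-expresses GFP, and GFP-positive cells were sorted 48 h after electroporation. The conditions therefore share the strain, the passage and the steps of electroporation and sorting. Each factor is expressed from the plasmid, and its level was not held equal between libraries or factors. The labels do not say that replicates were separate cultures, so the spread behind each p-value is that among libraries and may be technical.

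An elastic fibre has an amorphous core of crosslinked elastin laid on a scaffold of microfibrils. Fibrillins polymerise into the microfibrils, the glycoproteins Mfap4 and Mfap5 bind them, fibulins link tropoelastin (the soluble precursor) to the scaffold and to lysyl oxidases, and the oxidases then crosslink the elastin. Fibroblasts and vascular smooth muscle cells are the main producers. In mice, loss of Fbln5 or Efemp2 leaves elastic fibres disorganised, and Fbn2 is made chiefly during development.

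Promoter sequence is shown for Fbln5 and Efemp1, because the factors bind DNA. RefSeq windows of GRCm38.p6 matched 6 of the 10 genes, with 10 windows in all, and the 250 bases before each annotated start were searched on both strands for TAATCC, the site of homeodomains of the Crx type, and for TAAT, the core of most homeodomain sites, which every TAATCC contains. TAATCC occurred in 0 of the 10 windows, and 6.25% of all 32851 windows hold it. TAAT occurred in 2 of the 10 windows, 1 of Fbln5 and 1 of Efemp1, and 54.9% of all windows hold it. The Fbln1 windows overlap each other, and so do some of the Efemp2 windows, so the 10 windows are not all separate sequence. The windows of Fbn1, Fbln1, Fbln2 and Efemp2 hold neither motif and are not printed, so the genes shown are those with a match. The matches are letters in a window, and no binding was measured. Fbln5 (chromosome 12, 101746565 to 101819119, minus strand) has a pair of annotated starts, and Efemp1 (chromosome 11, 28853154 to 28926743, plus strand) has 1. The upstream Fbln5 window (chr12:101819120-101819369, minus strand) holds neither motif. The downstream one (chr12:101818485-101818734, minus strand), which lies within the longer transcription unit, has overlapping TAAT matches on the 2 strands whose first bases lie 107 and 105 bases before the start. The Efemp1 window (chr11:28852955-28853204, plus strand) has matches 177 and 132 bases before its start. That start lies inside the gene coordinates given above and not at their first base. Capitals mark TAAT on either strand.
Fbln5, upstream start: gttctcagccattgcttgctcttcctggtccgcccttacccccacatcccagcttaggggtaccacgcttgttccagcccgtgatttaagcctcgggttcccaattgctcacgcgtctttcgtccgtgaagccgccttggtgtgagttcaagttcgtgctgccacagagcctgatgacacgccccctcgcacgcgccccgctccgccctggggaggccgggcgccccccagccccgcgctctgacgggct
Fbln5, downstream start: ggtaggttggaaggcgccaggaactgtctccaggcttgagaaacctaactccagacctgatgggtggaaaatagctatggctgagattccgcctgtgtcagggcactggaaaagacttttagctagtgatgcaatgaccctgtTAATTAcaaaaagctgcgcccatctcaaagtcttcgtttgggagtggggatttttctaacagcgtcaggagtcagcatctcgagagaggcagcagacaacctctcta
Efemp1: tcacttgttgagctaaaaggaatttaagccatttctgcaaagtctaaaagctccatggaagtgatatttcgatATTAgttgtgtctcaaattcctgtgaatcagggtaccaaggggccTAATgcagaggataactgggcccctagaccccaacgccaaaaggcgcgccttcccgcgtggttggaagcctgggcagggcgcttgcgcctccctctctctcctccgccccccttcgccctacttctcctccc

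Library totals were 28440415 to 42778823 counts. In its own libraries the row of the transfected gene held 5586 to 12033 counts for Crxos and 2009 to 5956 for Oboxa1. For Oboxa4 it held 2338 to 3712 counts and for Oboxa7 2227 to 3899. The same rows held at most 34 counts in any other condition and 0 in the controls. The libraries fall into 2 sets that the conditions do not explain. Principal component 1 of the 1000 most variable genes, the elastic fibre genes left out, explained 56.5% of the variance and set 5 libraries apart (Crxos 1 to 3, Oboxa1 replicate 3 and control replicate 1, the smaller set) from the other 10 (the larger set). The sets were found after the counts had been seen. The authors state that they matched experiments by date in their own test, but no source used here gives a date for a library. The fit of all libraries therefore has no term for date, and whether the sets follow dates is not known. All Crxos libraries lie in 1 set, so results below are also given from a fit within sets. In that fit Crxos is compared with control replicate 1 alone, and Oboxa4 and Oboxa7 with control replicates 2 and 3. Against control, the Oboxa1 value averages its comparisons in the 2 sets, weighted by its number of libraries in each. Between Obox genes, the difference uses only libraries of the larger set, of which Oboxa1 has 2. The spread comes from conditions with more than 1 library in the same set, so control replicate 1 adds none. The Crxos p-values of that fit therefore cannot reflect how far controls of the smaller set would differ from each other.

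The fibroblast label was checked on 10 markers, all of which passed the filter, and collagen and vimentin transcripts were abundant in every library. Fibroblast markers summed to 26022 to 30872 CPM (library-size-scaled counts, with TMM factors) in Crxos libraries, 27489 to 29309 in Oboxa1, 27846 to 29663 in Oboxa4 and 22072 to 26772 in Oboxa7, against 19203 to 20881 CPM in control libraries. The numbers that rose were 8, 5, 4 and 3 of 10 after Crxos, Oboxa1, Oboxa4 and Oboxa7, or 8, 8, 8 and 4 within sets. Vim fell after Crxos in the fit of all libraries, and Pdgfra fell after Oboxa7 in both fits and after Oboxa4 within sets. The 8 smooth muscle markers summed to 5298 to 6235 CPM in Crxos libraries, 5619 to 6889 in Oboxa1, 5476 to 6571 in Oboxa4 and 6375 to 7427 in Oboxa7, against 4079 to 4767 CPM in controls, and 5, 7, 4 and 4 of them rose, or 3, 7, 6 and 7 within sets. The fibroblast and smooth muscle sums lay above the controls in every library with a factor. The smooth muscle sum reached its highest value after Oboxa7, where the fewest elastic fibre genes rose in the fit of all libraries. The part of these sums in the results was not tested. Beside the marker counts, 8.38%, 4.25%, 8.06% and 3.33% of all genes rose after Crxos, Oboxa1, Oboxa4 and Oboxa7, and 8.4%, 3.28%, 5.83% and 2.34% fell. Endothelial markers summed to at most 19.1 CPM in any library with a factor and 25.0 CPM in controls, with Pecam1 at 0 in at least 1 control, and macrophage markers to at most 9.89 CPM with a factor and 6.39 CPM in controls. Of 4 tested endothelial markers 1, 0, 1 and 1 fell after Crxos, Oboxa1, Oboxa4 and Oboxa7 (0, 1, 2 and 2 within sets), and of 3 tested macrophage markers 1, 1, 2 and 1 rose (0, 1, 2 and 1 within sets). Epithelial markers, mostly Krt19, summed to 14.9 to 17.6 CPM in Crxos libraries and 17.2 to 59.5 CPM in the Obox libraries, against 42.0 to 79.5 CPM in controls. Of 5 such markers, Krt18 and Krt19 fell after Crxos and Krt19 after Oboxa4, while Epcam and Krt8 rose after Oboxa7, where they averaged 0.650 and 0.888 CPM against 0.171 and 0.242 CPM in controls. Within sets 2, 2, 2 and 1 fell and 0, 0, 0 and 2 rose. Chondrocyte markers summed to 86.7 to 103.7 CPM with a factor and 85.3 to 130.5 CPM in controls, where Matn1 was at 0, and 0, 1, 1 and 0 of 4 tested rose (0, 2, 2 and 0 within sets, with 1 lower after Crxos).

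Per kilobase of transcript, the 10 genes spanned a wide range. In control fibroblasts, Fbln2 was highest at 499.9 ± 86.8 RPKM (CPM per kilobase, mean ± SD, n = 3), followed by Efemp2 at 176.6 ± 12.2 and Fbn1 at 130.6 ± 8.71. Efemp1 (65.6 ± 20.9) and Fbln5 (64.7 ± 3.12) overlapped. Fbn2 (28.7 ± 14.6), Fbln1 (21.2 ± 0.711) and Mfap4 (21.0 ± 0.595) also overlapped, each with the next. Mfap5 lay at 11.6 ± 2.94 RPKM and Eln was lowest at 5.62 ± 1.24 RPKM, with no library of the one inside the range of the other. The top of the order, Fbln2, Efemp2 and Fbn1, was the same in all 5 conditions, and lower down it shifted. Eln reached 14.1 ± 4.73 RPKM with Crxos, 18.03 ± 7.01 with Oboxa1, 23.7 ± 3.73 with Oboxa4 and 14.7 ± 4.23 with Oboxa7, and its mean stood above that of Mfap5 in each of these conditions. Its libraries overlapped those of Mfap5 after Crxos, Oboxa1 and Oboxa7 and lay above them after Oboxa4.

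**Figure D1:**
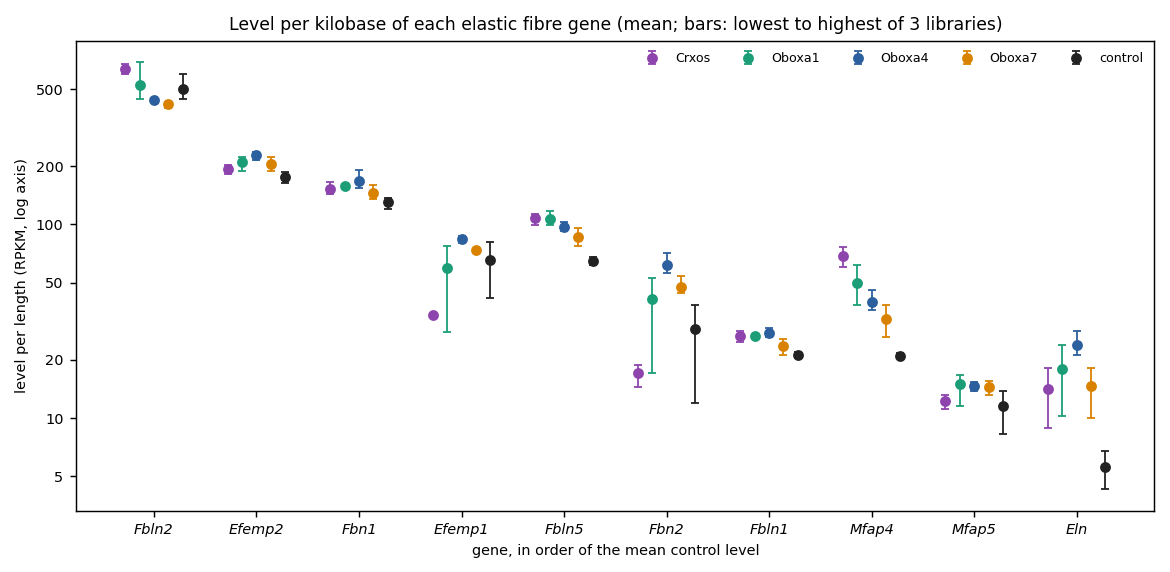
Level per kilobase (RPKM, log axis) of each elastic fibre gene, ordered by its mean in control fibroblasts. Points are means and bars run from the lowest to the highest of 3 libraries for Crxos, Oboxa1, Oboxa4, Oboxa7 and control. Eln is the lowest gene in controls, at 5.62 RPKM, and lies at 14.1 to 23.7 RPKM with the factors.

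Against the control, most of what passed the test was an increase. A gene was called where the adjusted p of edgeR's quasi-likelihood test was under 0.05 and the log2 fold change beyond 0.32 in either direction. After Crxos 4 of the 10 genes rose (Eln, Fbln1, Fbln5 and Mfap4), where 8.38% of all 14012 genes rose, and 1 fell (Efemp1), where 8.4% of all genes fell. After Oboxa1 4 genes rose (again Eln, Fbln1, Fbln5 and Mfap4) and 0 fell, beside 4.25% and 3.28% of all genes. After Oboxa4 6 genes rose (Eln, Fbn1, Fbln1, Fbln5, Efemp2 and Mfap4) and 0 fell, beside 8.06% and 5.83% of all genes. After Oboxa7 3 genes rose (Eln, Fbln5 and Mfap4) and 0 fell, beside 3.33% and 2.34% of all genes. Among the 10 genes after the Obox genes, 0 were lower at an unadjusted p under 0.05 in this fit, and DESeq2 called 0 lower. No share of all genes is given for that unadjusted p. Within sets Efemp1 after Oboxa1 was lower at such a p, by less than the fold threshold. The median log2 fold change of the 10 genes was 0.28, 0.35, 0.37 and 0.27 after Crxos, Oboxa1, Oboxa4 and Oboxa7, and over all genes it was -0.0013, 0.0026, 0.0024 and -0.00071. All 3 libraries lay above all 3 controls for 6 of the 10 genes after Crxos, 6 after Oboxa1, 7 after Oboxa4 and 5 after Oboxa7, beside 19.8%, 11.3%, 19.8% and 16.8% of all genes, and below them for 1 after Crxos (Efemp1) and 1 after Oboxa7 (Fbln2), beside 21% and 17.2%. The 4 comparisons share the 3 control libraries. In these sorted populations, more cells that make elastic fibre transcripts and more of the transcripts per cell cannot be told apart.

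**Figure D2:**
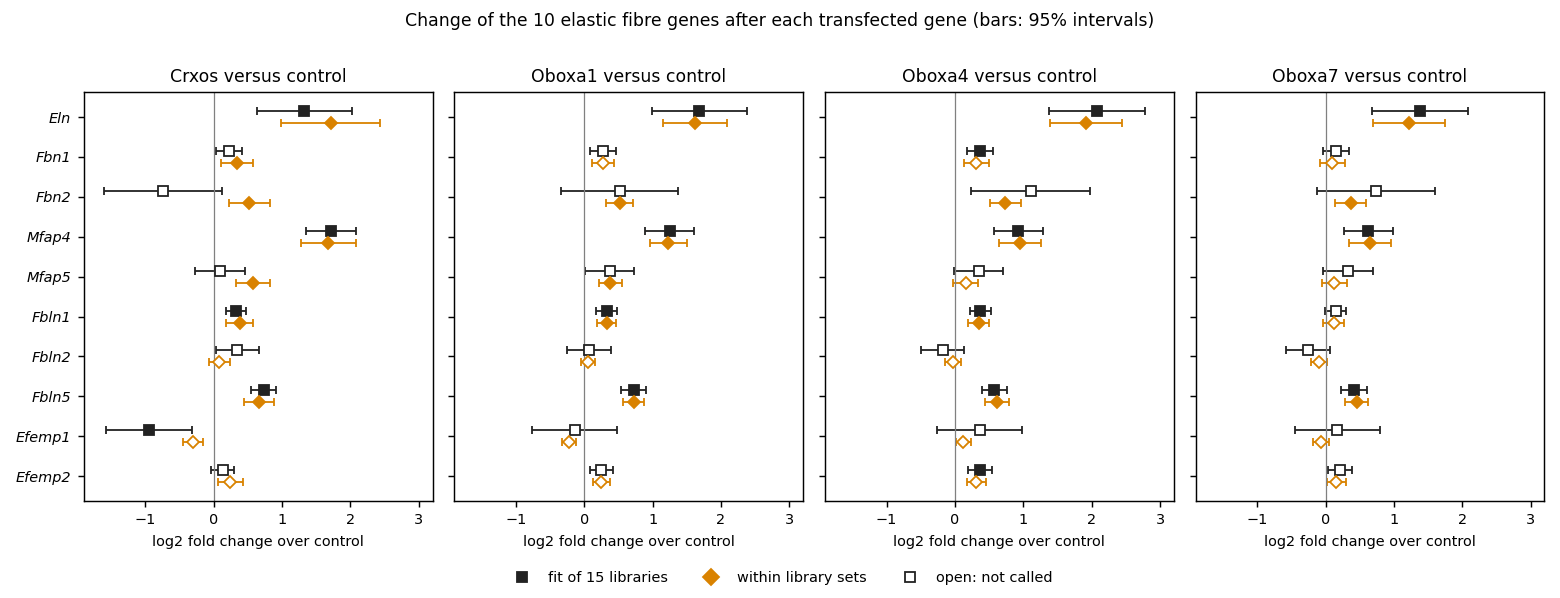
Log2 fold change of each elastic fibre gene over control after Crxos, Oboxa1, Oboxa4 and Oboxa7, with 95% intervals. Black squares are the fit of all 15 libraries, orange diamonds the fit within library sets, and open symbols did not pass the call. Eln, Fbln5 and Mfap4 lie right of 0 in each comparison under both fits, and Fbn2 after Crxos lies at -0.74 in the first fit and 0.52 in the second.

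Within library sets Eln, Fbln5 and Mfap4 were again called higher after all 4 factors, and Fbln1 after Crxos, Oboxa1 and Oboxa4. That fit called 7 genes higher after Crxos, 6 for Oboxa1, 5 for Oboxa4 and 4 for Oboxa7, and 0 lower, where it called 6.39%, 8.91%, 12.7% and 7.62% of all genes higher and 5.7%, 5.74%, 7.71% and 4.3% lower. The additions were Fbn2 after all 4 factors, Mfap5 after Crxos and Oboxa1, and Fbn1 after Crxos. The losses were Efemp1 after Crxos and Fbn1 and Efemp2 after Oboxa4.

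Elastin, the gene of the fibre core (Eln, chromosome 5, 134702595 to 134747368, minus strand), rose most of the 10 after each Obox gene. It had 37.3, 64.8 and 76.0 CPM in Crxos libraries, 100.7, 83.6 and 43.3 in Oboxa1, 92.2, 117.9 and 89.4 in Oboxa4 and 66.8, 76.4 and 41.9 in Oboxa7, against 18.1, 28.4 and 24.5 CPM in control libraries. Every library with a factor lay above every control, and the lowest were 1 library each of Crxos, Oboxa7 and Oboxa1. The log2 fold change over control was 1.33 ± 0.32 (SE) after Crxos (adjusted p = 0.0112), 1.68 ± 0.33 after Oboxa1 (adjusted p = 0.0065), 2.08 ± 0.33 after Oboxa4 (adjusted p = 0.00115) and 1.38 ± 0.32 after Oboxa7 (adjusted p = 0.0196), from 2.51-fold for Crxos to 4.22-fold for Oboxa4. Within library sets it was 1.71 after Crxos, 1.62 after Oboxa1, 1.92 after Oboxa4 and 1.22 after Oboxa7, called each time. Eln was also lower in the smaller set, with a ratio of larger over smaller set of 2.13 within Oboxa1 and 1.46 within control. In Oboxa1 cells the single library of the smaller set was 2.39-fold above its control and the libraries of the larger set 3.49-fold above theirs. The call was lost after Oboxa1 when only its own and the control libraries were fitted (adjusted p = 0.0842). After Oboxa7 it was lost without Oboxa7 replicate 1 (adjusted p = 0.0782), Oboxa7 replicate 2 (0.0804), control replicate 1 (0.0519) or control replicate 3 (0.0632), at log2 fold changes of 1.20 to 1.41. An antisense gene, Gm30003, overlaps an Eln exon on the other strand, and the strand setting of the counting is not given in the sources used here.

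Mfap4, a glycoprotein with a fibrinogen-like domain that binds elastin and fibrillin (chromosome 11, 61485431 to 61488708, plus strand), rose after all 4 factors and most after Crxos. It had 105.0, 133.6 and 124.0 CPM in Crxos libraries, 85.8, 67.1 and 108.5 in Oboxa1, 63.6, 80.5 and 64.9 in Oboxa4 and 56.6, 67.6 and 46.1 in Oboxa7, against 37.9, 35.9 and 36.3 CPM in controls. The groups with a factor did not overlap the controls, which differed among themselves by 1.04 CPM (SD). The log2 fold change was 1.72 ± 0.17 after Crxos (adjusted p = 9.14e-05), 1.247 ± 0.17 after Oboxa1 (adjusted p = 0.00102), 0.93 ± 0.17 after Oboxa4 (adjusted p = 0.00245) and 0.63 ± 0.17 after Oboxa7 (adjusted p = 0.0338). Within sets the values were 1.67 after Crxos, 1.23 after Oboxa1, 0.95 after Oboxa4 and 0.65 after Oboxa7, called each time. The Oboxa7 call was lost without Oboxa7 replicate 1 or 2 (adjusted p = 0.101 and 0.136) and without control replicate 1, 2 or 3 (0.0543, 0.0794 and 0.0961). Mapk7, a kinase gene on the opposite strand, shares exon sequence with Mfap4, and its log2 fold changes were -0.06 after Crxos, 0.06 after Oboxa1, 0.15 after Oboxa4 and 0.01 after Oboxa7, none called.

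Fbln5, the fibulin that tethers tropoelastin to cells and microfibrils, rose after all 4 factors. It had 613, 699 and 673 CPM in Crxos libraries, 720, 641 and 610 in Oboxa1, 566, 632 and 582 in Oboxa4 and 528, 588 and 475 in Oboxa7, against 419, 393 and 381 CPM in controls. All 12 libraries with a factor lay above the controls. The log2 fold change was 0.73 ± 0.09 after Crxos (adjusted p = 0.000237), 0.72 ± 0.09 after Oboxa1 (adjusted p = 0.000418), 0.58 ± 0.09 after Oboxa4 (adjusted p = 0.000881) and 0.42 ± 0.09 after Oboxa7 (adjusted p = 0.011). Each increase was smaller than that of Eln in the same comparison, with a narrower error. The call was kept within sets throughout, and the Oboxa7 call was lost without Oboxa7 replicate 1 or 2 or control replicate 3 (adjusted p = 0.0528, 0.0583 and 0.0544). As shown above, neither Fbln5 window holds TAATCC, and TAAT stands only before the downstream start.

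**Figure D3:**
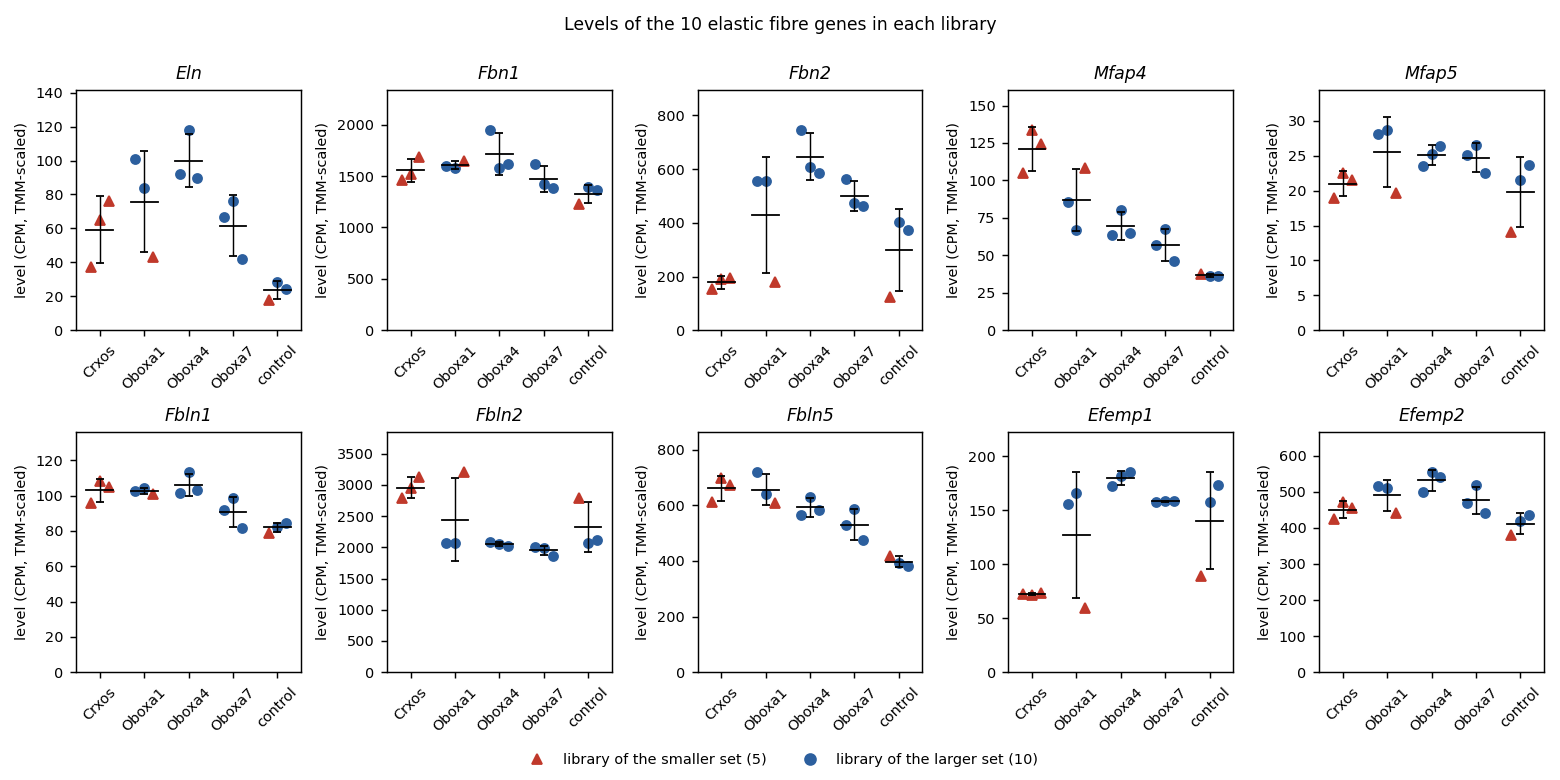
Level (CPM, TMM-scaled) of each of the 10 elastic fibre genes in all 15 libraries, for Crxos, Oboxa1, Oboxa4, Oboxa7 and control. Each point is a library, lines and bars give the mean ± SD of 3 libraries, red triangles are the 5 libraries of the smaller set and blue circles the 10 of the larger set. Eln, Fbln5 and Mfap4 are above control in every library with a factor, and in Oboxa1 and control, the conditions with both sets, the red library is the lowest for Eln, Fbn2, Fbln1, Efemp1, Efemp2 and Mfap5.

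Fbln1, a fibulin of elastic fibres and basement membranes (chromosome 15, 85205949 to 85286294, plus strand), had 95.8, 108.3 and 105.0 CPM with Crxos, 102.8, 104.4 and 100.9 with Oboxa1, 101.6, 113.4 and 103.3 with Oboxa4 and 91.8, 98.8 and 81.8 with Oboxa7, against 79.0, 82.5 and 84.5 CPM in controls. Its log2 fold changes of 0.33, 0.32 and 0.37 after Crxos, Oboxa1 and Oboxa4 passed the test (adjusted p = 0.00512, 0.0103 and 0.00294), while 0.15 after Oboxa7 did not (adjusted p = 0.199). These values stand at or just past the threshold of 0.32. They dropped under it without Crxos replicate 2 or 3 (0.29 and 0.31), without control replicate 1 (0.30 after Crxos and 0.30 after Oboxa1) and without Oboxa1 replicate 2 (0.32).

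Fbn1, the main fibrillin of these cells (chromosome 2, 125300594 to 125506485, minus strand), had 1463, 1520 and 1683 CPM with Crxos, 1597, 1579 and 1647 with Oboxa1, 1947, 1577 and 1621 with Oboxa4 and 1621, 1422 and 1383 with Oboxa7, against 1228, 1395 and 1364 CPM in controls. It rose after Oboxa4, by 0.37 ± 0.09 on the log2 scale (adjusted p = 0.0104), with its 3 libraries above all controls. The values after Crxos, Oboxa1 and Oboxa7 were 0.23, 0.27 and 0.15 (adjusted p = 0.0771, 0.0592 and 0.303). The Oboxa4 value was under the fold threshold without Oboxa4 replicate 1 (0.28), without control replicate 1 (0.32) and within sets (0.31), where the Crxos value was 0.34 and called. The coding gene Gm9913 overlaps a Fbn1 exon on the other strand.

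Efemp2, a fibulin that brings lysyl oxidase to tropoelastin (chromosome 19, 5473946 to 5482520, plus strand), had 423, 471 and 456 CPM with Crxos, 517, 511 and 441 with Oboxa1, 499, 554 and 541 with Oboxa4 and 468, 518 and 442 with Oboxa7, against 381, 418 and 436 CPM in controls. It rose after Oboxa4 by 0.37 ± 0.08 on the log2 scale (adjusted p = 0.00617), and the value within sets was 0.31, under the fold threshold, as was that without control replicate 1 (0.32). The values after Crxos, Oboxa1 and Oboxa7 were 0.13, 0.25 and 0.21 (adjusted p = 0.262, 0.0575 and 0.113). Mus81, a DNA repair nuclease gene, overlaps its exons on the opposite strand and was called in none of the 4 comparisons.

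Fbn2, the developmental fibrillin (chromosome 18, minus strand), varied more than any other of the 10 genes over the 15 libraries, with an SD of 0.85 in log2 CPM, against 0.16 for Fbn1. It had 152.0, 190.8 and 196.4 CPM with Crxos, 555, 554 and 178.7 with Oboxa1, 745, 610 and 585 with Oboxa4 and 565, 475 and 463 with Oboxa7, against 125.1, 402 and 375 CPM in controls. Every library under 200 CPM belonged to the smaller set. Between sets the ratio of larger over smaller set was 3.105 within Oboxa1 and 3.105 within control. In the fit of all libraries Fbn2 was not called (log2 fold change -0.74 after Crxos, 0.51 after Oboxa1, 1.11 after Oboxa4 and 0.74 after Oboxa7, adjusted p = 0.195, 0.433, 0.0631 and 0.265). Within sets it was called higher after all 4, at 0.52 ± 0.14 for Crxos, 0.51 ± 0.10 for Oboxa1, 0.74 ± 0.11 for Oboxa4 and 0.37 ± 0.11 for Oboxa7 (adjusted p = 0.0177, 0.000686, 6e-05 and 0.021), so the sign after Crxos depends on which controls are used. Without control replicate 1, which is in the set of the Crxos libraries, Fbn2 fell by 1.11 after Crxos on the log2 scale (adjusted p = 0.0198). A long non-coding RNA gene, Gm26507, overlaps a Fbn2 exon on the other strand.

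The same split shows in the make-up of the fibrillin transcripts. Of the summed RPKM of Fbn1 and Fbn2, Fbn2 made up 9.16, 10.9 and 10.2% with Crxos, 25.2, 25.4 and 9.53% with Oboxa1, 27.1, 27.3 and 26.0% with Oboxa4 and 25.3, 24.5 and 24.5% with Oboxa7, against 9.0, 21.9 and 21.1% in controls. The 5 libraries of the smaller set were between 9.0 and 10.9%, and the 10 of the larger set between 21.1 and 27.3%. Within the larger set each Obox library lay above both controls, and within the smaller set Crxos and Oboxa1 lay above the single control. Elastin was also set against its scaffold. Per 100 RPKM of Fbn1, Eln had 6.16, 10.3 and 10.9 RPKM with Crxos, 15.3, 12.8 and 6.35 with Oboxa1, 11.4, 18.1 and 13.3 with Oboxa4 and 9.97, 13.0 and 7.33 with Oboxa7, against 3.56, 4.92 and 4.35 in controls, so all 12 libraries with a factor were above all controls. In Oboxa1 and control this ratio, too, was lowest in the library of the smaller set.

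**Figure D4:**
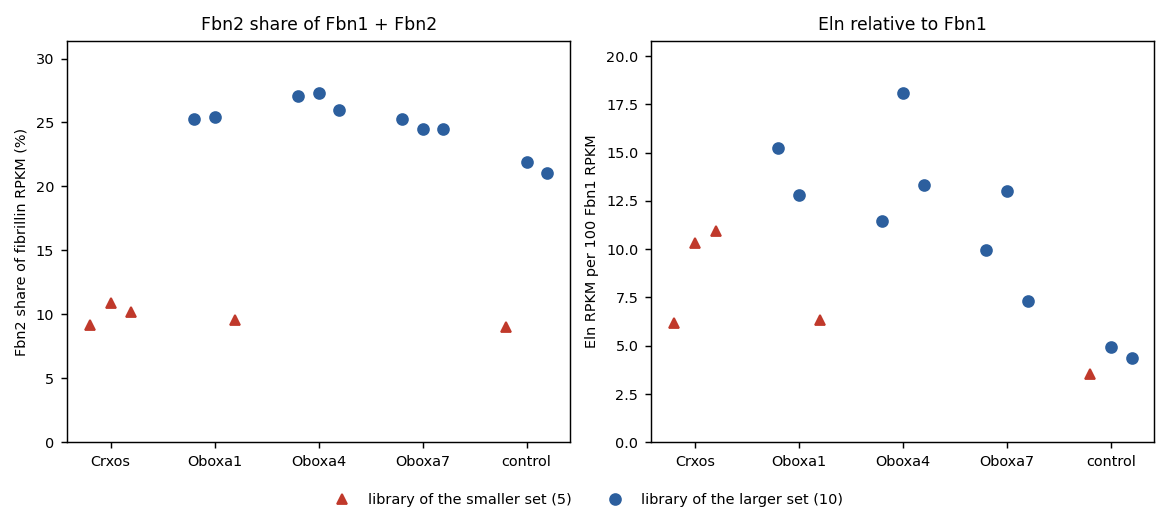
Left, Fbn2 as a percentage of the summed Fbn1 and Fbn2 RPKM in each library, and right, Eln RPKM per 100 RPKM of Fbn1, for Crxos, Oboxa1, Oboxa4, Oboxa7 and control. Red triangles are libraries of the smaller set and blue circles of the larger set. On the left the sets separate at 9.0 to 10.9% and 21.1 to 27.3%, and on the right all libraries with a factor lie above the control maximum of 4.92.

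Efemp1, a fibulin of microfibril-rich tissues, was the single gene called lower in a comparison with control. It had 72.5, 71.7 and 73.5 CPM with Crxos, 155.4, 166.2 and 59.7 with Oboxa1, 172.5, 181.8 and 185.4 with Oboxa4 and 157.2, 158.9 and 158.3 with Oboxa7, against 89.4, 158.1 and 173.4 CPM in controls. The Crxos libraries lay below all controls, and so did Oboxa1 replicate 3, the other library of the smaller set. The log2 fold change after Crxos was -0.95 ± 0.29 (adjusted p = 0.0314), and -0.30 within sets (adjusted p = 0.00504), under the fold threshold and so not called. The call was also lost without Crxos replicate 1, 2 or 3 (adjusted p = 0.0811, 0.0922 and 0.0759) or control replicate 2 or 3 (0.0995 and 0.129). After Oboxa1, Oboxa4 and Oboxa7 the values were -0.14, 0.36 and 0.17 (adjusted p = 0.794, 0.389 and 0.749). Within sets they were -0.22, 0.12 and -0.07 (adjusted p = 0.00188, 0.087 and 0.391), and the Oboxa1 value passed the p threshold but not the fold threshold. Its promoter window, printed above, has a pair of TAAT matches and no TAATCC.

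Fbln2, a large fibulin and the most abundant of the 10 transcripts per kilobase, had the opposite relation to the sets (chromosome 6, 91212460 to 91272540, plus strand). It had 2798, 2945 and 3131 CPM with Crxos, 2068, 2065 and 3207 with Oboxa1, 2088, 2052 and 2016 with Oboxa4 and 2002, 1989 and 1866 with Oboxa7, against 2792, 2064 and 2125 CPM in controls. Each library of the smaller set was above each of the larger set. None of the 4 log2 fold changes was called, at 0.35 after Crxos, 0.07 after Oboxa1, -0.18 after Oboxa4 and -0.25 after Oboxa7 (adjusted p = 0.107, 0.797, 0.399 and 0.305), and within sets they lay between -0.10 and 0.08. Without control replicate 1, or without Oboxa1 replicate 3, the Crxos value was called, at 0.50 (adjusted p = 0.0198) and 0.35 (adjusted p = 0.0115).

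Mfap5, a small glycoprotein bound to fibrillin microfibrils (chromosome 6, 122513584 to 122529290, plus strand), had 19.0, 22.6 and 21.5 CPM with Crxos, 28.1, 28.7 and 19.7 with Oboxa1, 23.5, 25.3 and 26.4 with Oboxa4 and 25.1, 26.6 and 22.5 with Oboxa7, against 14.1, 21.5 and 23.7 CPM in controls. All 4 groups overlapped the controls in part, and the log2 fold changes of 0.09 after Crxos, 0.37 after Oboxa1, 0.35 after Oboxa4 and 0.32 after Oboxa7 were not called (adjusted p = 0.734, 0.17, 0.154 and 0.242). Within sets it was called after Crxos (0.58, adjusted p = 0.00233) and Oboxa1 (0.38, adjusted p = 0.0013) and not after Oboxa4 (0.15) or Oboxa7 (0.13). Without Oboxa1 replicate 3 the Oboxa1 value in all other libraries was 0.53 (adjusted p = 0.0307), and that of Efemp2 was 0.33 (adjusted p = 0.011).

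Whether the Obox genes differed from each other was tested directly. In each of the 3 pairs 0 of the 10 genes were called, where 0.0285% of all genes were called for Oboxa4 against Oboxa1, 0.186% for Oboxa4 against Oboxa7 and 0.121% for Oboxa1 against Oboxa7. These shares are for adjusted calls. No share of all genes is given for the unadjusted p used next, so the counts at that p have no baseline. The unadjusted p was under 0.05 for 3 of the 10 genes in the comparison of Oboxa4 with Oboxa7 (Eln, Fbn1 and Fbln1). The largest of these differences was that of Eln, 0.70 on the log2 scale (95% interval 0.03 to 1.37, adjusted p = 0.458), and within sets it was called (0.27 to 1.13, adjusted p = 0.0464), as was Fbn2 at 0.37 (0.17 to 0.57, adjusted p = 0.0265). For this pair the fit within sets called 1.91% of all genes higher and 1.62% lower. Between Oboxa1 and Oboxa7 the unadjusted p was under 0.05 for Fbln1, Fbln2, Fbln5 and Mfap4. Mfap4 differed by 0.62 (0.27 to 0.98, adjusted p = 0.222), which DESeq2 called (adjusted p = 0.0369), and Fbln5 by 0.31 (0.12 to 0.49, adjusted p = 0.243), which the fit within sets called at 0.36 (adjusted p = 0.0216). That fit called 0.707% of all genes higher and 1.04% lower for this pair, with Oboxa1 replicate 3 left out of the difference. Between Oboxa4 and Oboxa1 the unadjusted p was under 0.05 for 0 of the 10 genes, and DESeq2 called 0 of them in this pair and in that of Oboxa4 with Oboxa7. The interval of Eln there was -0.27 to 1.06 and that of Fbn2 -0.27 to 1.45, which leaves room for more than a 2-fold difference. Those of Fbn1 (-0.10 to 0.28) and Fbln1 (-0.10 to 0.20) stay inside 0.32 on either side.

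Crxos was compared with the mean of the 3 Obox genes. In this contrast 2 of the 10 genes were higher (Fbln2 and Mfap4), beside 7.84% of all genes, and 2 lower (Fbn2 and Efemp1), beside 9.66%. Mfap4 was higher by 0.79 ± 0.13 on the log2 scale (adjusted p = 0.00652), and by 0.73 within sets (adjusted p = 0.0357). With an additive term for the sets in the model its value was 0.52 and was not called (adjusted p = 0.418). The other differences were 0.47 ± 0.12 for Fbln2, -1.53 ± 0.36 for Fbn2 and -1.08 ± 0.25 for Efemp1 (adjusted p = 0.0128, 0.0102 and 0.0101). Within sets Fbln2 was 0.11, Fbn2 -0.02 and Efemp1 -0.24, and none was called. The contrast runs along the library sets, since all Crxos libraries are in the smaller set and 8 of the 9 Obox libraries in the larger one. Eln differed by -0.39 (95% interval -0.95 to 0.17, adjusted p = 0.275).

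Beyond the 10 genes, the pattern of Eln over the 15 libraries was most like that of Col8a2, a collagen chain of vessel walls and the cornea. After centring, their log2 CPM differed by a root mean square of 0.16. Next were Adamts3, a procollagen-processing protease (0.26), the amine oxidase Aoc3, the synuclein-binding protein Sncaip and the adhesion molecule Chl1 (each 0.30). Col8a2 had 8.78, 11.6 and 11.5 CPM with Crxos, 21.5, 16.6 and 10.0 with Oboxa1, 18.2, 25.7 and 17.4 with Oboxa4 and 12.5, 13.2 and 8.73 with Oboxa7, against 3.64, 5.27 and 5.07 CPM in controls. Since the 5 were picked for likeness to Eln in these libraries, their own changes are not tested here. Among 14011 genes ranked by likeness to Eln, Fbln5 stood at 327, Mfap5 at 488, Efemp2 at 815, Fbln1 at 873, Fbn1 at 1181, Mfap4 at 1241, Fbn2 at 2028, Efemp1 at 7533 and Fbln2 at 11486.

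Other genes of the elastic fibre were counted by role. Over all genes, 8.38%, 4.25%, 8.06% and 3.33% rose after Crxos, Oboxa1, Oboxa4 and Oboxa7, and 8.4%, 3.28%, 5.83% and 2.34% fell. The shares within sets are those given above. The lists are short, and whether any count exceeds these shares was not tested. Of 8 further microfibril and fibulin family genes, 1, 2, 2 and 1 rose after Crxos, Oboxa1, Oboxa4 and Oboxa7, and 0 fell. Within sets Mfap2 and Hmcn1 were called higher after all 4, and 0 were lower. Mfap2, which binds fibrillin as Mfap5 does, rose by 0.62, 0.68 and 0.78 on the log2 scale after Crxos, Oboxa1 and Oboxa4. It had 42.6, 53.4 and 51.3 CPM with Crxos, 58.8, 48.7 and 46.1 with Oboxa1, 49.4, 61.4 and 54.0 with Oboxa4 and 41.8, 45.7 and 36.6 with Oboxa7, against 31.7, 32.9 and 31.4 CPM in controls. Hmcn1, a very long extracellular protein of the fibulin family, rose after Oboxa1, Oboxa4 and Oboxa7 (1.27, 1.98 and 1.57), with 10.2 to 32.2 CPM in their libraries against 5.37 to 7.51 CPM in controls, and was 0.69 after Crxos (adjusted p = 0.0654).

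Among 15 tested genes of microfibril-bound proteins (latent TGF-beta binding proteins, emilins and ADAMTS-like proteins), 4, 3, 4 and 3 rose after Crxos, Oboxa1, Oboxa4 and Oboxa7, and 2, 0, 0 and 1 fell. Adamtsl1, a secreted ADAMTS-like protein, rose after all 4 (1.18, 1.20, 1.18 and 0.81), and so did Adamts10, a protease that binds fibrillin (0.48, 0.34, 0.44 and 0.32). Emilin1, a glycoprotein at the interface of elastin and microfibrils, rose by 0.57, 0.74 and 0.52 after Oboxa1, Oboxa4 and Oboxa7 and was 0.23 after Crxos (adjusted p = 0.131). Ltbp1 and Ltbp4, which hold latent TGF-beta on microfibrils, fell by 0.64 and 0.45 after Crxos. Ltbp1 had 581, 535 and 554 CPM with Crxos, against 682, 934 and 986 CPM in controls, the lowest of these being that of the smaller set. Within sets 3, 4, 6 and 3 of the 15 were called higher and 0, 0, 0 and 1 lower. In that fit Ltbp1 and Ltbp4 after Crxos were -0.29 and -0.02, not called, Emilin1 after Crxos was called at 0.32, and the gene lower after Oboxa7 was Ltbp4 (-0.55).

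Crosslinking genes followed the library sets in part. Of 8 lysyl oxidases and processing enzymes, 3, 2, 1 and 0 rose after Crxos, Oboxa1, Oboxa4 and Oboxa7, and 3, 3, 4 and 2 did so within sets, with 0 lower in either fit. Lox, which oxidises lysines of elastin and collagen, rose by 0.87 after Crxos and 0.66 after Oboxa1 (adjusted p = 0.00216 and 0.0178). It had 2941, 3019 and 3274 CPM with Crxos, 2437, 2342 and 3177 with Oboxa1, 2309, 2372 and 2135 with Oboxa4 and 2244, 2213 and 2029 with Oboxa7, against 2221, 1495 and 1321 CPM in controls, of which the highest is of the smaller set. Loxl2, a relative of Lox, rose by 1.54 after Crxos and 1.08 after Oboxa1, and Bmp1, the protease that releases active Lox from its precursor, by 0.72 after Crxos. Within sets Lox and Loxl2 were called higher after all 4 factors, and Bmp1 after Crxos, Oboxa1 and Oboxa4. Loxl1, the oxidase tied to elastic fibre upkeep in mice, rose by 0.33 after Oboxa4.

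Of 5 tested elastin-degrading proteases, 3, 2, 2 and 1 rose after Crxos, Oboxa1, Oboxa4 and Oboxa7 and 0 fell, and within sets 3, 3, 1 and 1 rose and 0 fell. Mmp2, a gelatinase, rose after all 4 factors (0.55, 0.51, 0.58 and 0.37), and Mmp14, which activates Mmp2 at the cell surface, after Crxos, Oboxa1 and Oboxa4 (0.33, 0.33 and 0.34). Ctsk, a cathepsin, rose by 0.78 after Crxos. Within sets Mmp14 after Oboxa4 was 0.27, under the fold threshold, and Ctsk was also called after Oboxa1, at 0.36. Of 9 genes of receptors for elastic fibre proteins, 0, 0, 1 and 0 rose and 0 fell. The 1 was the integrin chain Itga8, up by 0.85 after Oboxa4 (adjusted p = 0.0232), whose values of 0.66 and 0.76 after Oboxa1 and Oboxa7 did not pass (adjusted p = 0.0905 and 0.0631). Within sets Itga8 was called higher after all 4 factors, at 0.50 after Crxos, and the integrin chain Itgb3 was called lower after Oboxa4 and Oboxa7, at -0.64 and -0.51.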

How the data were processed

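RNA was measured in 15 libraries, 3 for each of 5 conditions, with poly-A selected RNA sequenced on a HiSeq4000. Reads were paired-end. The authors mapped them with STAR to GRCm38 (mm10) and assigned them to genes with featureCounts, and the submitters' notes name the counter and the build. Tool versions and the strand setting are not given in any source here. Each deposited value is the authors' raw count of reads for a gene, with no normalization or filter. Of the 22063 rows, 2 repeat an earlier name.

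Counts were scaled by TMM, filtered with filterByExpr (14012 genes) and fitted in 1 model over all 15 libraries with edgeR 4.0.16 (quasi-likelihood test, R 4.3.3, with limma 3.58.1), with Benjamini–Hochberg adjustment over all genes tested, at an adjusted p under 0.05 and a fold change above 1.25. SEs come from the fit, and intervals are at 95%. CPM are counts over TMM-scaled totals, and RPKM divide these by the deposited gene lengths. Totals of 28440415 to 42778823 counts leave little counting error in these genes, so precision rests on how much libraries differ. Coordinates are those of GRCm38.p6.

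The 10 genes, the further lists and the library sets were chosen with earlier results of these data known. Named genes are the 10, up to 3 called genes of each further list and comparison with the smallest p, and the 5 genes most like Eln. Col8a2 was then singled out as the nearest of these, and the cell type markers named, Itgb3, and other list genes named only for the fit within sets, were picked after their values were seen. Replicates of 1 condition differed by more than sampling noise. The fit was tested on simulated counts before use. Alternatives were DESeq2's size factors and Wald test (DESeq2 1.42.0), upper-quartile scaling, other filters, only the groups compared, a replicate block, other fold thresholds, fits within or with a term for the library sets, and leaving out each library.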

Additional observations from a re-analysis of the deposited data

Results flagged for a closer look

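For 4 of the 10 genes the change after Crxos differed from the mean change after the 3 Obox genes by a direct test (edgeR's quasi-likelihood test, adjusted p under 0.05). The differences in log2 fold change were -1.53 for Fbn2, 0.47 for Fbln2, -1.08 for Efemp1 and 0.79 for Mfap4. Within library sets, Mfap4 was 0.73 (adjusted p = 0.0357) and the others were -0.02, 0.11 and -0.24 (adjusted p = 0.968, 0.473 and 0.0581). All 3 Crxos libraries are in the smaller set and 8 of the 9 Obox libraries in the larger. For all 4 genes, therefore, the factor and the library set cannot be told apart in the fit of all libraries. The values within sets rest on control replicate 1 alone for Crxos, and with a term for the sets Mfap4 was not called. Oboxa1 replicate 3, the Obox library of the smaller set, had 108.5 CPM of Mfap4, within the Crxos range of 105.0 to 133.6 CPM. Control replicate 1, also of the smaller set, had 37.9 CPM, near the 35.9 and 36.3 CPM of the controls of the larger set.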

How the results depend on the processing

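Against control, log2 fold changes that passed the test kept their direction under every alternative run. Fbn2 after Crxos, at -0.74 and not called in all 15 libraries, was 0.52 within library sets and 0.52 with a term for the sets, called in both. At each other change of direction, the value was called neither in all 15 libraries nor under that alternative. Against control, Efemp1 after Oboxa7 was -0.068 within sets, -0.16 with the term and -0.065 in the 10 libraries of the larger set, and Fbln2 was -0.014 after Oboxa1 in those 10 libraries and 0.0066 after Oboxa4 with the term. For Oboxa1 against Oboxa7, Fbn2 was 0.15 within sets, with the term and in the 10 libraries, and Efemp1 was 0.023 within sets and 0.027 in the 10 libraries. For Crxos against the Obox mean, Eln, Fbn1, Efemp2 and Mfap5 were 0.13, 0.11, 0.0023 and 0.35 within sets and 0.39, 0.012, 0.026 and 0.28 with the term. Leaving out 1 library at a time moved Mfap5 after Crxos between -0.10 and 0.24, Fbln2 after Oboxa1 between -0.17 and 0.23, and Efemp1 between -0.38 and 0.20 after Oboxa1 and between -0.067 and 0.35 after Oboxa7. For Oboxa4 against Oboxa1 it moved Fbn1 between -0.0039 and 0.15, Fbln1 between -0.0059 and 0.082 and Mfap5 between -0.18 and 0.070, and for Oboxa4 against Oboxa7 Mfap5 between -0.041 and 0.080. For Oboxa1 against Oboxa7 it moved Fbn2 between -0.45 and 0.15, Efemp1 between -0.55 and 0.027, Efemp2 between -0.0085 and 0.11 and Mfap5 between -0.043 and 0.20, and for Crxos against the Obox mean Fbn1 between -0.10 and 0.0051. The number called higher after Crxos was 7 within sets, and the number called lower was 0 within sets, with a term for the sets and under glmTreat (a test against the fold threshold itself). Higher calls after Oboxa1 were 2 with only the groups compared, and under glmTreat they were 3 after Oboxa4 and 0 after Oboxa7. For Oboxa4 against Oboxa7, 1 gene was higher with only the groups compared, 2 within sets and 2 in the 10 libraries of the larger set. For Oboxa1 against Oboxa7, 1 was higher under DESeq2's Wald test, 1 within sets and 1 in those 10 libraries. For Crxos against the Obox mean, 1 was higher and 0 lower under glmTreat, 1 and 0 within sets, and 0 of either kind when the sets were a term. Leaving out 1 library at a time gave 3 to 5 higher and 0 to 2 lower calls after Crxos, 3 to 6 higher for Oboxa1, 4 to 7 for Oboxa4 and 0 to 3 for Oboxa7, 0 for each Obox pair, and 1 to 2 higher and 1 to 2 lower for Crxos against the Obox mean. Among these alternatives, shares of all genes are given above only for the fit within sets, and there not for Crxos against the Obox mean. The other counts have no baseline, so their changes cannot be told from changes in calls over all genes.

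The replicate number pairs no samples by the labels, and only 3 of 30 same-numbered pairs had a correlation of deviations over 0.1. With the replicate block, 4 genes were higher and 1 lower after Crxos, 4 higher for Oboxa1, 6 for Oboxa4 and 2 for Oboxa7, where Mfap4 was 0.62 (adjusted p = 0.0525). The share of all genes called with the block is not given either. Depth does not limit these genes, but 3 libraries a group and a lone control in the smaller set do.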
